A study of Mus musculus with 12 samples.

Results

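The replication-dependent histone genes of the mouse were described in 12 RNA libraries from small-intestinal epithelium. Members were the protein-coding genes of the GENCODE M21 annotation (GRCm38) whose symbol began with Hist1h, Hist2h, Hist3h or Hist4h, the symbols of the clustered histone genes. The rule found 67 genes, of which 65 had a row among the 48526 gene rows of each count file. The 2 others, Hist1h2bh and Hist1h2bm, were not analysed here. By class, the 65 genes were 6 for the linker histone H1, 18 for H2A, 16 for H2B, 12 for H3 and 13 for H4. The Hist1 cluster on chromosome 13 held 52 of them, the Hist2 cluster on chromosome 3 held 10, the Hist3 cluster on chromosome 11 held 2, and Hist4h4 on chromosome 6 stood alone.

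These genes encode the bulk of the histones that package newly copied DNA. They are transcribed strongly in S phase, and their mRNA ends in a conserved stem-loop in place of a poly(A) tail. The stem-loop binding protein Slbp holds that hairpin during 3′ processing and translation, and the mRNA is degraded when DNA synthesis stops. In the intestine, cell division takes place in the crypts, while the villus epithelium is post-mitotic. Other histone genes, such as H3f3a and H2afz, make polyadenylated mRNA outside S phase as well.

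The study asked which RNAs the antibodies J2 and K1, both raised against double-stranded RNA, pull down from epithelium with and without the lysine acetyltransferases Kat2a and Kat2b. The epithelium came from the proximal part of the small intestine of 3-month-old female mice, freed with EDTA. The sample titles instead name whole intestine epithelial cells. Control mice received ethanol in corn oil by intraperitoneal injection on 4 days. Kat2a/Kat2b double-knockout (DKO) mice received tamoxifen at 100 mg/kg in the same vehicle, and epithelium was collected 2 days after the final dose. The Cre driver and the floxed alleles were not given in the sources used here, so the cells in which the genes were deleted cannot be stated. Genotype and tamoxifen changed together and cannot be told apart. Input RNA, J2 pulldown and K1 pulldown were each sequenced from 2 control and 2 DKO animals, and the 3 libraries of one replicate number and genotype came from one animal. With 2 animals per group, p-values measure only the spread between these animals. Libraries were primed with random hexamers after depletion of ribosomal RNA, so a poly(A) tail was not needed for a transcript to be sequenced.

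The hairpin that marks the family was read from the transcript models, because its place in a model tells whether the counted exons end where the processed mRNA ends. The histone stem-loop letters, those in capitals below with the positions at which the printed copies vary left free and searched on the sense strand, were present in 42 of the 67 genes, against 45 of the 22028 protein-coding genes of the annotation (0.204%). The 3 other genes were H2afx, H2bfm and Trim17. The members below are those on which the results turn, with the 16 hairpin bases in capitals and 6 flanking bases on each side in lower case.
Hist1h4d: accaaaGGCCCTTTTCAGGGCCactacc
Hist1h4n: actaaaGGCCCTTTTCAGGGCCatccaa
Hist1h4i: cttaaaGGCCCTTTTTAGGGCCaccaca
Hist1h3c: aaaaaaGGCTCTTTTAAGAGCCacctaa
Hist1h1c: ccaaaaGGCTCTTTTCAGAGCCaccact
Hist1h1d: tcaaacGGCTCTTTTCAGAGCCacccac
Hist1h1e: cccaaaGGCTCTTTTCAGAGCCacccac
The Hist1h4n model ended 31 bases after the hairpin. The Hist1h4i model went on for 330 bases, that of Hist1h1c for 840, that of Hist1h4d for 770 and that of Hist1h1d for 4884. Of the 65 genes, 24 were grouped as having a model that extended more than 50 bases past the hairpin. Hist1h2bp was placed there for a second model without the letters, its other model ending 38 bases after the hairpin. In 16 genes the model ended near it, and 25 had models without the letters, among them Hist1h4a and Hist1h1a.

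The gene-assigned counts per library ranged from 10307281 to 11474107 in input and from 13308021 to 16139531 in the control pulldowns. The 4 DKO pulldowns stood apart. The 2 J2 libraries totalled 5826361 and 2691285, the 2 K1 libraries 5559033 and 2220291, and 15.8% to 46.7% of their reads were not uniquely aligned, against 5.54% to 8.05% in the other 8 libraries. Replicates of log2 CPM (counts scaled to the same library total) correlated with r = 0.901 in J2 DKO and 0.93 in K1 DKO, and at 0.984 or above in the other groups (across genes, which are not independent replicates). The targeted genes checked the labels in input: Kat2a had 222 and 228 counts in controls and 84 and 148 in DKO, and Kat2b had 359 and 343 against 118 and 114. Both fell, Kat2a by 0.88 (SE 0.227, adjusted p = 0.0205) and Kat2b by 1.51 (SE 0.165, adjusted p = 0.000632) on the log2 scale. Of the 65 genes, 43 shared at least 50% of their exon bases with another gene at 97% identity or more, and 24 overlapped the exons of another gene. The deposited files set aside reads that matched several places or several genes, and the counting was unstranded, so the split of reads among such copies is uncertain.

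In control input, H4 genes were the most abundant of the family per length. Summed over the tested genes of a class, the level was 1910 ± 135 CPM per kilobase of exon (SD, n = 2) for H4, 981 ± 144 for H3, 633 ± 52.8 for H2B, 348 ± 52.6 for H1 and 130 ± 6.42 for H2A. The same order held in DKO input at lower levels, with 702 ± 149 for H4, 244 ± 103 for H3, 192 ± 71.7 for H2B, 148 ± 14.7 for H1 and 32.4 ± 8.53 for H2A. Reads set aside limit these levels to a degree that differs by class: all 18 H2A genes with a row overlapped the exons of another gene and 15 of 18 were at least 50% near-identical to one, as were 11 of 12 H3 genes, while none of the 6 H1 genes reached 50%. Among single genes, Hist1h4f led with 323 ± 45.6 CPM per kilobase, ahead of Hist1h4h at 285 ± 0.422, Hist1h4d at 268 ± 26.7 and Hist1h4m at 263 ± 19.0, and these neighbours lay within about 1 SD of each other. The leading H3 gene was Hist1h3i (173 ± 29.5), the leading H2B gene Hist1h2bn (132 ± 20.1) and the leading H1 gene Hist1h1b (112 ± 23.2). Hist1h2ai led the H2A genes with 36.1 ± 0.257.

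The family as a whole took a smaller share of input RNA in DKO epithelium. In controls it held 0.293% ± 0.0293 of the gene-assigned input counts (SD, n = 2; 32379 and 31296 counts) and 0.102% ± 0.0288 in DKO input (9222 and 13775 counts), a 2.87-fold lower share. Each class was lower, from 2.28-fold for H1 to 4.15-fold for H3, and no DKO library reached a control library in any class. In a two-sided exact permutation test of the total share p was 0.333, the smallest that 2 against 2 animals allow. In the J2 pulldown the share was 0.0563% ± 0.00676 in controls. The 2 J2 DKO libraries lay on either side of that, at 0.0324% (95% exact binomial interval 0.0309 to 0.0339) and 0.107% (0.103 to 0.111), and the exact permutation p was 1. In the K1 pulldown the share was 0.188% ± 0.0141 in controls and 0.0688% ± 0.0289 in DKO, 2.73-fold lower, again with the smallest exact p of 0.333. The intervals cover counting error only.

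**Figure D1:**
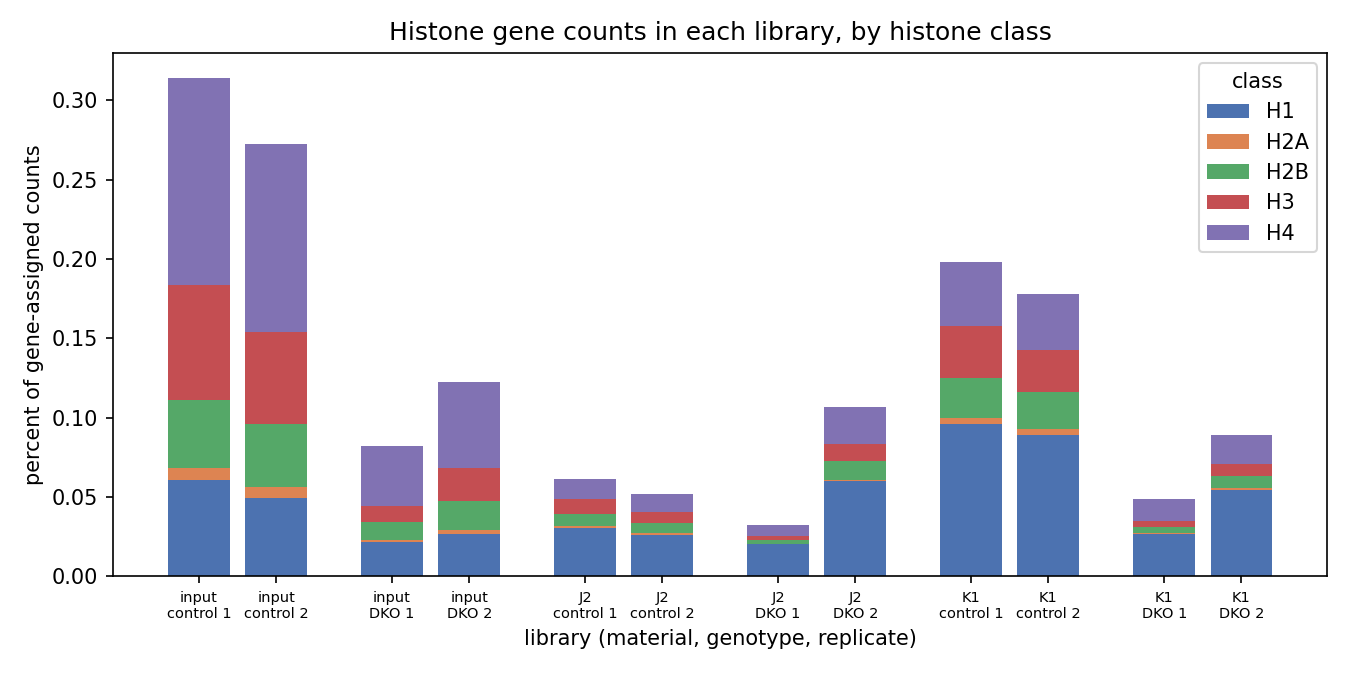
Percent of gene-assigned counts that fell on the 65 histone genes in each of the 12 libraries (x axis: material, genotype and replicate), stacked by histone class. The control input bars reach 0.314% and 0.273% and the DKO input bars 0.082% and 0.123%, while the 2 J2 DKO bars lie below and above the J2 control bars.

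Gene by gene, the family fell across all 5 classes in DKO input. Of the 48 members that passed the filter on low counts, 42 were called lower in DKO than in control and 0 higher by edgeR's quasi-likelihood test (Benjamini-Hochberg adjusted p under 0.05 over 15088 genes). Of all genes tested 35.9% were called, 17.1% lower and 18.8% higher. The members' median log2 fold change was -1.92, or 3.77-fold lower, beside a median of all genes tested of -0.00. The values of 45 members did not overlap in the lower direction, where 36.8% of all genes did so. Lower counts of a bulk sample do not tell fewer cells of one type from less RNA per cell.

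The linker histones, which bind DNA between nucleosomes, were split. Hist1h1a (chr13:23763666-23764406) had 628 and 556 counts in control input and 43 and 129 in DKO input. It fell by 2.72 on the log2 scale (SE 0.357, adjusted p = 0.00131), and Hist1h1b fell by 2.65 (SE 0.357). Hist1h1d fell by 1.74 (SE 0.223) and Hist1h1e by 0.95 (SE 0.143), the latter no longer called when all 12 libraries were fitted together (adjusted p = 0.0639). Hist1h1c (chr13:23738808-23740367), the H1 gene with the highest level per length over the input libraries, was not called, with 1409 and 1373 counts in control and 1221 and 1339 in DKO input. The fitted change was -0.04 on the log2 scale (SE 0.123, adjusted p = 0.84), and its scaled values overlapped. The H1 median was -1.74, with 4 of 5 called.

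H4 genes, whose protein forms the core tetramer with H3, spanned the range from the deepest fall to the one value above 0. Hist1h4a (chr13:23760692-23761230) fell most of the 48 members: 727 and 727 counts became 62 and 106, a fall of 3.04 on the log2 scale or 8.21-fold (SE 0.196, adjusted p = 0.000103). Both DKO libraries were far under both controls. Hist1h4m fell by 2.12 (SE 0.144) and Hist1h4f by 1.94 (SE 0.247), while Hist1h4d, with 3370 and 3258 counts against 1690 and 1945, fell by 0.79 (SE 0.129; adjusted p = 0.0586 with all 12 libraries). Hist1h4n had 934 and 987 counts against 627 and 843, a log2 fold change of -0.31 (SE 0.13, adjusted p = 0.105). Hist1h4i (chr13:22040636-22041362) was the single tested member with a value above 0: 67 and 71 counts in controls and 71 and 102 in DKO gave 0.40 (SE 0.228, adjusted p = 0.205). In H4, 10 of 12 genes were called lower, with a median of -1.68.

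H3 genes had the lowest class median, -2.06, and 9 of 10 were called. Hist1h3b (350 and 327 counts against 36 and 80) fell by 2.48 (SE 0.284), and Hist1h3e, at the shallow end of the called H3 genes, fell by 1.62 (SE 0.207). Hist1h3i fell by 2.05 (SE 0.28) and Hist1h3a by 2.23 (SE 0.252). The exception was Hist2h3c2 with 27 and 26 counts against 13 and 30, where one DKO library lay above the controls and one below (-0.23, SE 0.389, adjusted p = 0.677).

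The dimer partners H2A and H2B had similar medians in input. The H2A median was -1.94 with 9 of 10 called, and the H2B median was -1.89 with 10 of 11 called. Hist1h2ad (28 and 30 counts against 3 and 5) fell by 2.74 (SE 0.405), Hist1h2ab by 2.31 (SE 0.248) and Hist1h2bf (314 and 302 against 30 and 74) by 2.50 (SE 0.31). The leading H2B gene, Hist1h2bn, fell by 2.31 (SE 0.368), whereas Hist1h2bc, with 1015 and 1316 counts against 575 and 805, fell by 0.67 (SE 0.151; adjusted p = 0.102 with all 12 libraries). Hist1h2ao (-0.87, SE 0.36, adjusted p = 0.0975) and Hist1h2bp (-1.17, SE 0.61, adjusted p = 0.172) were not called; Hist1h2bp had 21 and 22 counts against 2 and 16. H2A and H2B genes often lie head to head and share the stretch between their starts. Of 12 such pairs 8 had both genes tested, and the partners' log2 fold changes differed by 0.027 to 0.85, with a median gap of 0.326.

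**Figure D2:**
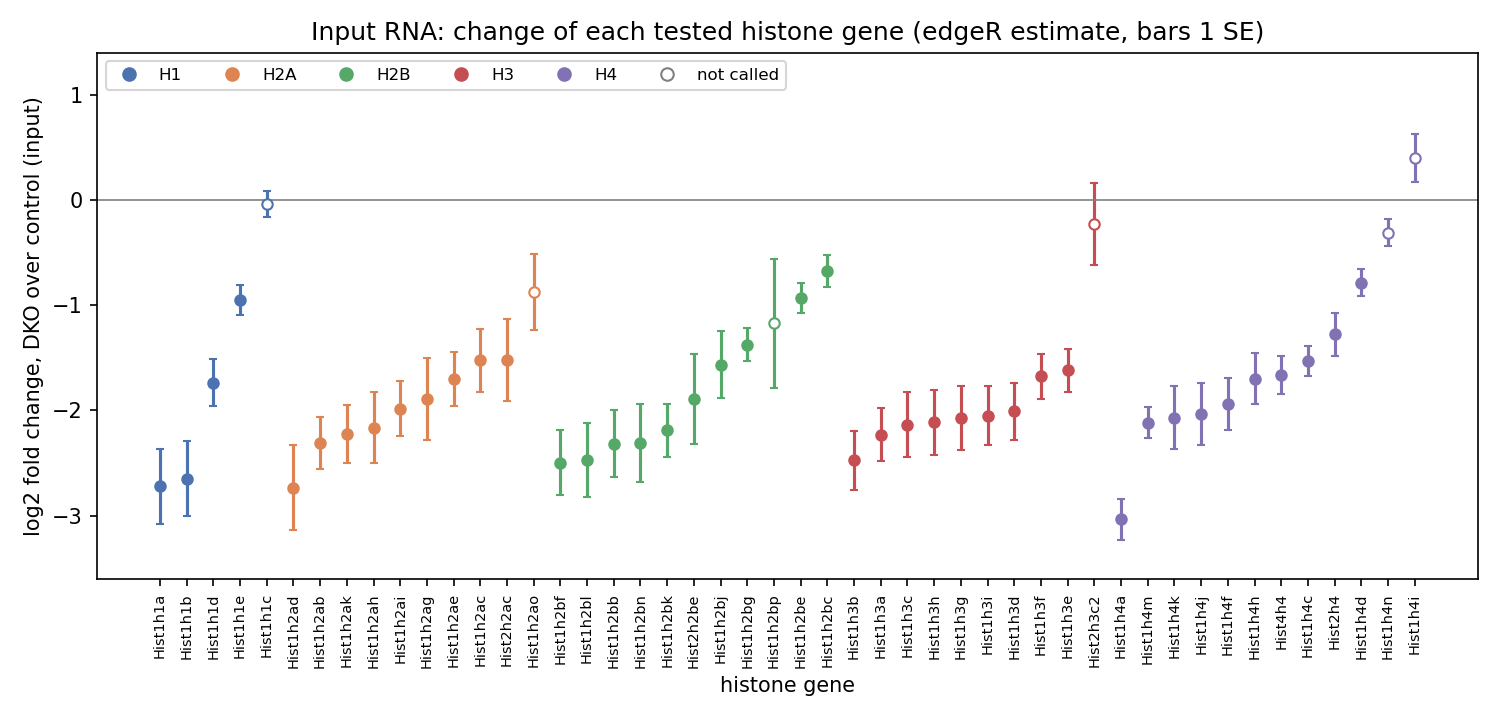
Log2 fold change of DKO over control in input (y axis) for the 48 tested histone genes (x axis), coloured by class; points are edgeR estimates, bars 1 SE, and open points were not called. Hist1h4a is lowest at -3.04, and Hist1h1c, Hist2h3c2, Hist1h4n and Hist1h4i sit closest to 0 or above it.

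The fall was not confined to the Hist1 cluster. Outside it, 5 members passed the filter, and 4 of them fell: Hist2h2be by 1.89 (SE 0.429), Hist4h4 by 1.66 (SE 0.181), Hist2h2ac by 1.52 (SE 0.387) and Hist2h4 by 1.27 (SE 0.205). The call of Hist2h2ac was lost in each fit without one animal (adjusted p = 0.0628 to 0.139) and with DESeq2 (0.157), and that of Hist2h2be without control replicate 2 (adjusted p = 0.101) or DKO replicate 1 (0.0583). Neither gene of the Hist3 cluster passed the filter, with at most 5 counts in any library. The genes known from testis were near or at 0: Hist1h2aa had 0 counts in all 12 libraries, Hist1h2ba at most 2 and Hist1h1t at most 4. A count of 0 in the smallest input library allows up to 0.291 CPM. Altogether 6 members had 0 counts everywhere, and 5 of those were Hist2 genes with near-identical or overlapping copies.

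Gene model and sequence moved with the size of the fall. The 20 tested members grouped as running past the hairpin, Hist1h2bp among them, had a median of -1.52 with 16 called. The 13 that ended near it had -2.12 with 11 called, and the 15 without it -2.12 with 15 called. Across the 48 members Spearman's rho of the log2 fold change was 0.456 with exon length and -0.416 with GC content, given as a description of genes that share libraries and base composition. Members under 50% near-identity had a median of -1.60 (16 of 18 called) and the others -2.07 (26 of 30 called). Polyadenylation signal letters (AATAAA or ATTAAA) stood in the last 40 bases of a transcript model of 11 tested members. Of these 8 were called lower, with a median of -1.66, beside 34 of 37 and -2.05 for the rest. Hist1h1c and Hist1h4i carried such a signal, and so did Hist1h4a, the member that fell most. The part of model length, GC content or 3′ ends in these differences was not tested.

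Promoters are shown for the member that fell most and for 2 that were not called. RefSeq start sites (GRCm38.p6) gave 300-base windows, from 250 bases before to 50 after the start, for 62 of the 67 members, with 2 windows for Hist1h2be. The CCAAT letters were present on either strand in 85.7% of the 63 windows, against 37.4% of all 32851 promoters. They stood in every H1, H2A, H2B and H3 window but in only 3 of 12 H4 windows. The TATAAA letters were in 55.6% against 13.6%, and the octamer ATTTGCAT in 22.2% against 1.74%, in 7 H2A and 7 H2B windows and in no window of another class. Capitals in the sequences mark the CCAAT and TATAAA letters on either strand. The window of Hist1h4a (chr13:23761200-23761499, minus strand), the gene that fell most, had both, with CCAAT read on the other strand.
Hist1h4a: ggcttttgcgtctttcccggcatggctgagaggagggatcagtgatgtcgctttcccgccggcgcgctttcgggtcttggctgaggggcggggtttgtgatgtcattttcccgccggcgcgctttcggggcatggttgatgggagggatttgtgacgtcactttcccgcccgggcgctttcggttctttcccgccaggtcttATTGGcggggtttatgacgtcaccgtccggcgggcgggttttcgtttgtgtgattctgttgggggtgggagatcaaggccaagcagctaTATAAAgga
Hist1h4i (chr13:22041313-22041612, minus strand), which was not lower, had TATAAA and no CCAAT.
Hist1h4i: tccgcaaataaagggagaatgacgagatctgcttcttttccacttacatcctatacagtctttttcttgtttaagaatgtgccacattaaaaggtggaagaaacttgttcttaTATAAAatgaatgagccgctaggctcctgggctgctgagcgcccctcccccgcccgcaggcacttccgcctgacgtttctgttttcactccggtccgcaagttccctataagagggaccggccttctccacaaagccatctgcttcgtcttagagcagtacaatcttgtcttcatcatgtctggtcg
Hist1h1c (chr13:23738557-23738856, plus strand), also not called, had CCAAT without TATAAA.
Hist1h1c: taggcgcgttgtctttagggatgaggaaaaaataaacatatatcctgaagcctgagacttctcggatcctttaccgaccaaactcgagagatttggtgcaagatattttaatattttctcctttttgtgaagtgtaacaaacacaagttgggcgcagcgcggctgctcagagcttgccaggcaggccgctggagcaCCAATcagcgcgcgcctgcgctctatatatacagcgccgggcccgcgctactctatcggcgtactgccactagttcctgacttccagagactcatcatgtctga
A match describes letters in a window and is neither a site nor a cause.

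Genes of the same cell-cycle phase fell with the histone genes in input, and the genes that make and degrade histone mRNA mostly did not pass the test. The list of DNA replication genes had 25 of 29 tested genes called lower and 0 higher (median -1.34), among them the helicase subunits Mcm5 (-1.35, SE 0.258), Mcm6 (-1.64, SE 0.214) and Mcm7 (-1.36, SE 0.17). The sliding clamp gene Pcna was not called (-0.06, SE 0.12, adjusted p = 0.719). In the list of G2 and mitosis 16 of 16 were called lower (median -1.59), including the proliferation marker Mki67 (-2.07, SE 0.149) and the topoisomerase Top2a (-1.82, SE 0.231). Of 18 genes for histone mRNA production and decay, 3 were called lower and 1 higher, with a median of -0.04. Among all genes tested in input, 17.1% were called lower and 18.8% higher. The helicase Upf1 (-0.03, SE 0.122), the scaffold Sympk (-0.01, SE 0.116) and Srrt (-0.18, SE 0.126) were not called, while the processing factor Cpsf2 rose by 0.40 (SE 0.115, adjusted p = 0.0314). Slbp itself, named here after its values were seen, had 248 and 316 counts in controls against 170 and 206 in DKO and fell by 0.50 (SE 0.152, adjusted p = 0.0388).

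Polyadenylated histone variants and chaperones were mixed. Of 9 tested variant genes 5 were called lower and 0 higher (median -0.80), beside 17.1% lower and 18.8% higher of all genes tested. H3f3a (-1.06, SE 0.118) and H2afz (-0.80, SE 0.148) fell, while H3f3b (-0.03, SE 0.124) and the replacement linker gene H1f0 (-0.03, SE 0.129) were not called. Of 12 chaperone genes that hand histones to new chromatin or import them, 5 were called lower and 2 higher, with a median of -0.50. Hjurp, the chaperone of the centromeric variant Cenpa, fell by 1.67 (SE 0.158), whereas Daxx, a chaperone of H3.3, rose by 2.04 (SE 0.263) and the importin Ipo4 rose by 0.99 (SE 0.139).

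**Figure D3:**
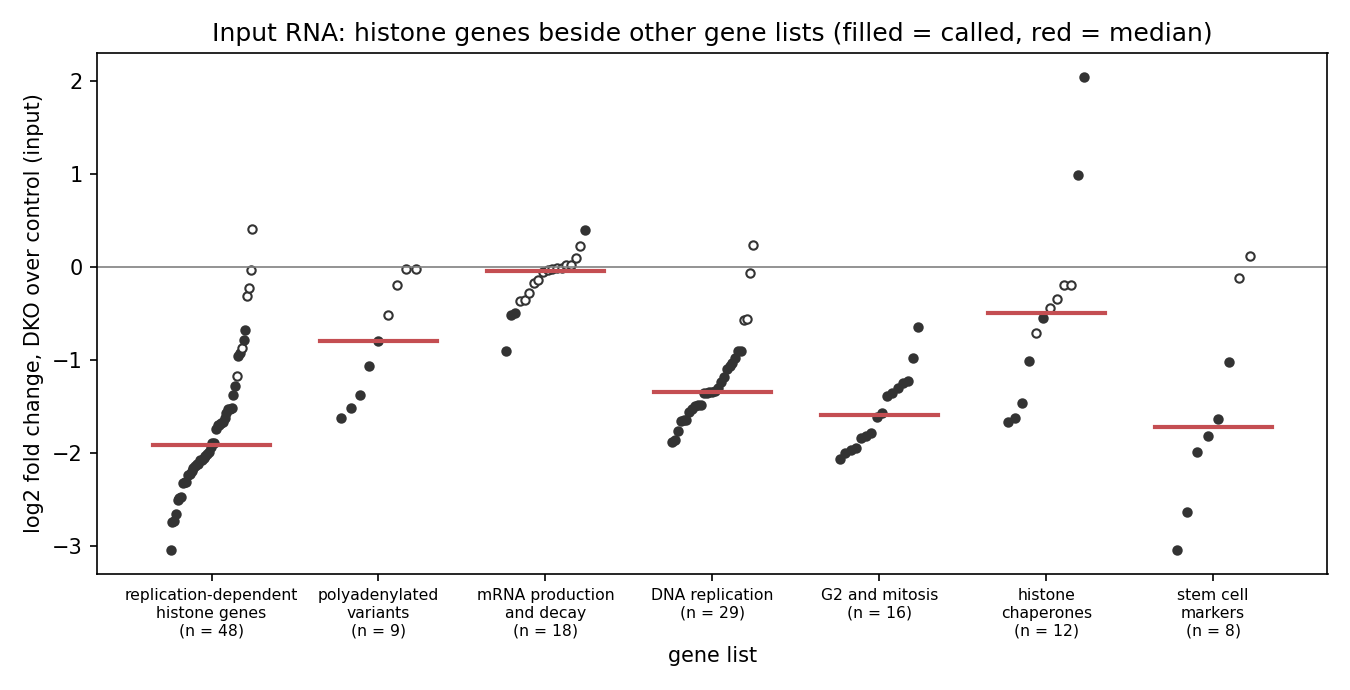
Log2 fold change of DKO over control in input (y axis) for tested genes of 7 lists (x axis); each point is a gene, filled if called, and the red line is the list's median. The histone genes have a median of -1.92, the DNA replication list -1.34, the G2 and mitosis list -1.59, and the mRNA production and decay list -0.04.

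Most crypt stem cell markers moved in the same direction. Of 8 genes 6 were called lower and 0 higher (median -1.72). Olfm4 fell by 3.04 (SE 0.309) and Slc12a2 by 1.63 (SE 0.243). Axin2 (-0.12, SE 0.13, adjusted p = 0.496) and Sox9 (0.12, SE 0.17, adjusted p = 0.621) were not called. The summed level of the 8 genes was 794 and 784 CPM in control input against 175 and 296 in DKO. Of 7 general epithelial markers 1 was called, and it was higher, and their sums were 7771 and 7900 against 7501 and 6911 CPM. Of 8 enterocyte markers 3 were called lower, of 7 goblet cell markers 2 were called higher, and of 6 Paneth cell markers 1 was called in each direction. Beside these small lists, 17.1% of all genes tested in input were called lower and 18.8% higher. Of 9 leukocyte markers tested 6 were called lower, and their sums were 170 and 169 CPM against 105 and 105. None of the 4 stromal and vessel markers tested in input was called. The part of cell composition in the fall of the histone genes was not tested.

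In the K1 pulldown the family also stood lower in DKO. Of 43 tested members 31 were called lower and 1 higher, against 27.1% of all 12888 genes called (13.9% lower and 13.2% higher). The median was -2.03, or -1.91 with the 5 genes that had at most 3 counts in both DKO libraries set at their bound. All 31 (100%) were among the 42 called lower in the input of the same animals, or 73.8% of those. With 42 of 48 tested members lower in input, a high overlap was likely from the start. The overlap over all genes is not given here. Hist1h2bk had 217 and 165 counts in the K1 controls and 1 and 4 in DKO (-3.77, SE 0.721, adjusted p = 0.0112). Hist1h3b, with 154 and 106 counts against 1 and 3, was at least 7.19-fold lower, taking 3 counts in each DKO library as the floor. By class, 3 of 5 H1 genes, 4 of 7 H2A, 8 of 9 H2B and 8 of 10 H3 genes were called lower, and in H4 8 of 12 were lower and 1 was higher. Hist1h1e (-0.12, SE 0.321), Hist1h4d (-0.43, SE 0.242) and Hist1h4n (-0.48, SE 0.39) were not called. The median of the members was -1.78 without control replicate 1 and -2.08 without control replicate 2. Summed stromal and vessel markers were 10.7 and 48.1 CPM in the K1 controls and 173 and 111 in K1 DKO, and their part in the K1 values was not tested.

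In the J2 pulldown no member passed the test between genotypes. Of 41 tested members edgeR called 0, against 12.2% of all 13181 genes (6.02% higher and 6.16% lower). In simulated counts, where fewer genes changed than this test called in the data, it recovered 0 of 100 genes changed 4-fold. In the data its unadjusted p was under 0.05 for 4 members and for 4670 of all genes. DESeq2 called 1 member and 2884 of all genes. The median was -0.40. The values of 16 members did not overlap in the lower direction (35.5% of all genes) and those of 4 in the higher (31.2%). The spread between the 2 DKO libraries was wide. Over the 42 members then tested, the median was -1.01 without DKO replicate 2 and -0.16 without DKO replicate 1. The lowest value was that of Hist1h3b (38 and 32 counts against 1 and 4; -1.78, SE 0.763, adjusted p = 0.162). The median histone gene had 5 and 7 counts in the J2 DKO libraries, and 6 and 4 in the K1 DKO libraries. With correction for GC content and length the J2 median was -1.06, with 1 member called. Stromal and vessel markers summed to 10.7 and 25.7 CPM in J2 controls and 136 and 52.8 in J2 DKO, and their part was not tested.

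Set against the input of the same animals, histone RNA was poor in the J2 pulldown. In controls 42 of 48 tested members were called lower in J2 than in input and 0 higher, against 29.8% of all 15923 genes called (14.6% lower and 15.2% higher). The median was -2.49, or 5.60-fold lower, while the median of all genes was -0.07. H4 genes were lowest with a median of -3.22 and 11 of 12 called, and H3, H2B and H2A followed at -2.50, -2.22 and -2.16. Hist1h4c went from 108 and 114 CPM in input to 5.73 and 5.86 in J2 (-3.88, SE 0.279, adjusted p = 0.00133), and Hist1h4a from 70.5 and 63.4 to 4.30 and 2.25 (-3.97, SE 0.394). Hist1h2ad, with 28 and 30 counts in input and 1 and 1 in J2, was at least 9.75-fold lower. In the DNA replication list 3 of 29 were called lower and 1 higher, with a median of -0.31, and in the polyadenylated variants 3 of 9 were lower, with a median of -0.21. The 18 members under 50% near-identity had a median of -1.96, with 13 called lower. When either control animal was left out, no gene of any kind passed the test in this comparison, with member medians of -2.52 and -2.46.

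The linker histones lay highest. Their median in the control J2 pulldown was -0.80 with 2 of 5 called lower. Hist1h1d was level with input, at 146 and 120 CPM in input and 112 and 89.2 CPM in J2 (-0.03, SE 0.425, adjusted p = 0.964). Hist1h1c was called lower (-0.82, SE 0.234, adjusted p = 0.0325), and with the animal as a block its adjusted p was 0.0526.

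In the K1 pulldown of controls the class medians against input were again highest for H1 (0.84) and lowest for H4. In controls 24 of 48 members were called lower and 3 higher than in input, against 39.8% of all 15908 genes called (20.1% lower and 19.7% higher), with a median of -0.82. The H4 median was -1.56, with 11 of 12 called lower. Hist1h4c fell from 108 and 114 CPM to 17.8 and 17.3 (-2.43, SE 0.197), and Hist1h2ad was at least 11.4-fold lower. The 3 genes called higher were linker histones. Hist1h1d rose from 146 and 120 CPM in input to 363 and 308 in K1 (1.56, SE 0.342, adjusted p = 0.00522), Hist1h1e by 0.98 (SE 0.246, adjusted p = 0.01) and Hist1h1c by 0.84 (SE 0.233, adjusted p = 0.0164). The medians of the DNA replication list and the polyadenylated variants were 0.18 and 0.20. Leaving out control replicate 1 or 2 gave medians of the members of -0.78 and -0.89. With correction for GC content and length and the animal as a block, the median of the members was -0.45, with 19 called lower and 5 higher. Of the calls lost there, Hist1h4d went to -0.35 (adjusted p = 0.142), and Hist1h2bg, Hist1h3e and Hist1h3f, chosen after their values were seen, to -0.07, -0.09 and -0.13. The Hist1h1d model is 7425 bases long with a GC content of 39.8%, against 312 to 2863 bases in H4, and 4884 of those bases lie past the hairpin.

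In DKO animals the fitted class medians were also highest for H1 and lowest for H4 with both antibodies. By animal, H4 was not lowest in K1 of DKO replicate 1, with a median of -1.14 against -1.37 for H3. In J2, 18 of 48 members were called lower than input and 2 higher, against 25.7% of all genes (13.4% lower and 12.2% higher), with a median of -1.33 (-1.10 with the 8 genes at the floor set at their bound). The 2 higher genes were Hist1h1d (26.2 and 47.8 CPM in input, 51.0 and 217 in J2; 2.03, SE 0.444, adjusted p = 0.0155) and Hist1h1e (69.6 and 71.6 against 91.5 and 253; 1.51, SE 0.305, adjusted p = 0.0122). Both calls were lost with library size alone as scaling, at adjusted p = 0.0647 and 0.0636, and without either control animal, which lends its spread to this fit; 3 members in all then remained past the threshold. In K1, 23 members were called lower and 3 higher, against 35.6% of all genes (21% lower and 14.6% higher), with a median of -1.40 (-1.06 with the 9 genes at the floor at their bound). The higher genes were Hist1h1d (1.73, SE 0.351), Hist1h1e (1.65, SE 0.252) and Hist1h1a (1.51, SE 0.475, adjusted p = 0.0312); the last was not called with library size alone (adjusted p = 0.108). H4 genes were lower in 11 of 12 in J2 and in 10 of 12 in K1. Scaling by library size alone moved the median of all genes to between -0.23 and -0.48 in the 4 pulldown comparisons with input, to -0.13 in input and to -0.39 in K1 between genotypes, while the members' median minus that of all genes moved little, for example from -1.43 to -1.38 for J2 in DKO. With DESeq2 size factors the median of all genes was -0.11 for J2 and -0.12 for K1 against input in controls. The members' median minus it was -2.42 and -0.817.

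The make-up of the histone counts, which needs no scaling between libraries, showed the same contrast. H1 genes gave 18.7% ± 0.832 of the family's counts in control input (SD, n = 2). They gave 50.1% ± 0.104 in the J2 pulldown of the same mice and 49.2% ± 0.99 in the K1 pulldown. H4 genes gave 42.6% ± 1.35 in control input and 20.9% ± 0.178 and 20.2% ± 0.255 in the pulldowns. In DKO animals H1 gave 24.1% ± 3.06 of the counts in input, 59.1% ± 3.79 in J2 and 58.4% ± 3.96 in K1. No pulldown library overlapped an input library of its genotype in either class. With 2 libraries a group the smallest possible exact p is 0.333.

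**Figure D4:**
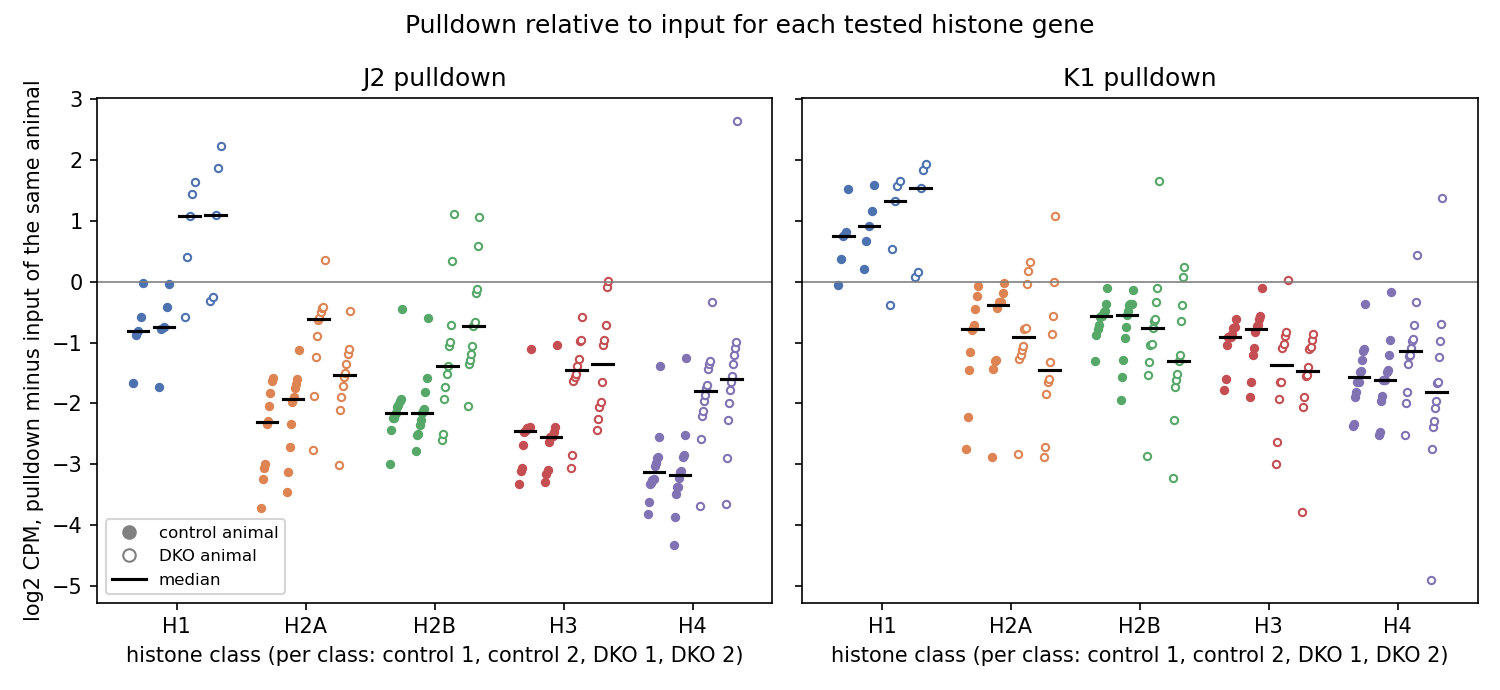
Log2 CPM of each tested histone gene in the J2 (left) and K1 (right) pulldown minus that in the input of the same animal (y axis), by class and animal (x axis); filled points are control animals, open points DKO animals, and lines medians. The H1 median is the highest of the 5 classes in every animal and antibody, with values of -0.82 and -0.74 in the J2 controls against -3.13 and -3.18 for H4.

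Whether the pulldown over input differed between genotypes was tested as an interaction. For J2, 0 of 48 members passed edgeR's test, against 2.71% of all 15923 genes (0.772% higher and 1.94% lower). In simulated counts, where fewer genes changed than this test called in the data, it recovered 0 of 100 genes changed 4-fold. In the data its unadjusted p was under 0.05 for 20 members and for 4120 of all genes. DESeq2 called 10 members, and its share of all genes is not given here. The median difference was 1.28 on the log2 scale (1.49 with the 8 genes at the floor set at their bound), with 45 of 48 estimates above 0, beside a median of all genes of 0.00. The values of 38 members did not overlap in that direction, where 27.4% of all genes did so. The median was 1.07 in the DNA replication list, with 27 of 29 estimates above 0. Hist1h1e came closest to the threshold: J2 minus input was -0.57 and -0.42 in controls and 1.08 and 1.86 in DKO, a difference of 2.01 (SE 0.426, adjusted p = 0.0507). Hist1h1d (2.06, SE 0.609, adjusted p = 0.0932) and Hist1h1a (2.01, SE 0.66, adjusted p = 0.115) lay below input in both controls and above it in both DKO animals. So did the H2B gene Hist2h2be (1.88, adjusted p = 0.155), and none of these passed. Hist1h1d was nearly level with input in the controls, at -0.02 and -0.05. The lowest estimate, that of Hist1h2ah, rested on 0 and 0 counts in J2 DKO and has no readable size. Across the alternatives, with each animal left out in turn included, the median of the members lay between 0.96 and 1.51.

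For K1 the same test called 0 of 48 members, against 5.47% of all 15908 genes (1.37% higher and 4.1% lower). Its unadjusted p was under 0.05 for 6 members and for 3736 of all genes, and DESeq2 called 0 members. The median was -0.37 beside -0.20 for all genes. It was -0.22 with the 9 genes at the floor set at their bound, and 0.08 without DKO replicate 2. With the animal as a block, which the shared animals of pulldown and input support, 3 members passed. The share of all genes in that fit is not given here, so the 3 are not read as a result about the family. Hist1h1a (1.09, SE 0.3, adjusted p = 0.0285) and Hist1h4f (1.12, SE 0.291, adjusted p = 0.0217) were higher in DKO, and Hist1h2bc (-1.06, SE 0.284, adjusted p = 0.0256) was lower. The lowest estimate, that of Hist2h3c2, rested on 1 and 0 counts in K1 DKO and has a bound of -0.23, and the highest was 1.84 (SE 1.22) in Hist1h2bp.

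Hist1h4i departed from its class in all 3 materials. It had 6.50 and 6.19 CPM in control input and 6.31 and 9.09 in DKO input. In K1 it had 4.28 and 4.63 CPM in controls and 6.48 and 20.7 in DKO, so the groups did not overlap, and it was the one member called higher (1.87, SE 0.523, adjusted p = 0.0367). That call was lost with library size alone (1.55, adjusted p = 0.0815), with correction for GC content and length (1.49, adjusted p = 0.0567), with all 12 libraries in one fit (1.64, adjusted p = 0.137) and without control replicate 1 (adjusted p = 0.153) or 2 (adjusted p = 0.107). In J2 it had 1.82 and 1.88 CPM in controls and 3.09 and 56.1 in DKO, where 151 of its counts came from DKO replicate 2. The log2 fold change was 3.81 (SE 1.14, adjusted p = 0.0799), 1.27 without DKO replicate 2 (adjusted p = 0.0311) and 4.63 without DKO replicate 1 (adjusted p = 7.05e-06). DESeq2 called it higher (3.84, adjusted p = 0.000176). The gene shared no near-identical stretch with another gene.

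**Figure D5:**
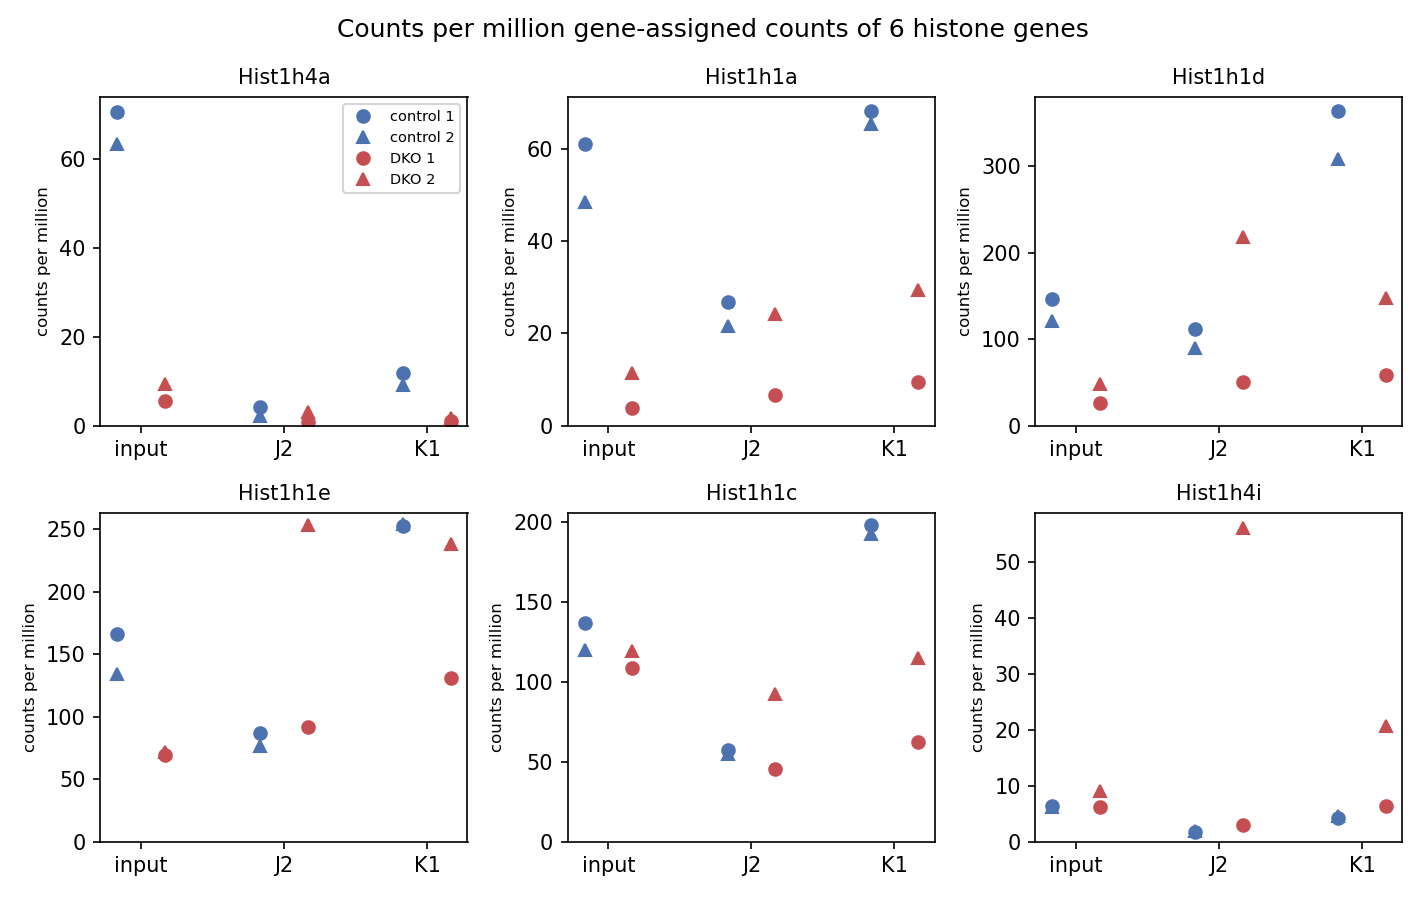
CPM (y axis, one scale per panel) of 6 histone genes in input, J2 and K1 libraries (x axis); blue points are control animals, red points DKO animals, and the symbol gives the replicate. Hist1h4a drops from above 60 in control input to under 10, Hist1h1c stays between 108 and 137 in input, and Hist1h4i reaches 56.1 in one J2 DKO library.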

How the data were processed

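Members, gene lists and tests were chosen with earlier results of these data known. The submitters' processing notes name STAR 2.7.10b, SAMtools 1.17, UMI-tools 1.1.4 and HTSeq 2.0.2 and the builds mm10 and GRCm38.p4, and the names of the deposited files mark the counting as unstranded. The deposited values are raw counts per gene, without normalization by the authors; their annotation version was not given in the sources used here. Gene identifiers were matched without version to GENCODE M21 (48144 of 48526 rows). Rows naming no gene were left out: reads outside genes were 6.76% to 27.0% and ambiguous reads 3.65% to 6.11% of a library's reads.

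From the counts, edgeR 4.0.16 (R 4.3.3) fitted the quasi-likelihood model with TMM scaling, filterByExpr at a count minimum of 10, and Benjamini-Hochberg adjustment over all genes tested at 0.05. Genotypes were compared within input, J2 or K1 (4 libraries, 2 residual degrees of freedom); pulldown against input, and its difference between genotypes, used the 8 libraries of one antibody and input (4 residual degrees of freedom). The SE is the absolute log2 fold change over the square root of F. Log2 CPM used a prior count of 2; the floor was 3 counts per library. Scripts were checked on simulated counts with known changes, 100 genes per fold size. Between genotypes the tests recovered 100 genes changed 4-fold in input, 0 in J2 and 73 in K1. At 2-fold they recovered 85, 0 and 8. For the difference of enrichment they recovered 0 in J2 and 48 in K1 at 4-fold, and 0 and 6 at 2-fold. Only 100 genes per fold size were changed there, while the J2 test between genotypes called 1606 genes in the data. The adjusted threshold was thus stricter in the simulation, and its recovery is not the power of the tests on these data. A count of 0 members called in the J2 tests does not show that nothing changed. Near-identity came from blastn 2.17.0 (97% identity over at least 100 bases). Alternatives were other scalings, no filter, DESeq2 1.42.0, all 12 libraries in one fit, a replicate block, GC and length correction, thinning, and leaving out each animal.

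Named members were the 4 most abundant of each class, up to 5 per direction and comparison with the largest called change, the extremes of each comparison, those outside Hist1 and the testis genes; of other lists, the 4 most abundant. Others shown were chosen after their values were seen. The animal named in the sample labels pairs pulldown with input: same-animal libraries deviated together (correlation 0.208 to 0.494). Across genotypes equal numbers mark different animals (-0.105 to 0.0261).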

Additional observations from a re-analysis of the deposited data

How the results depend on the processing

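The fall of the histone genes in input held in 35 to 43 of the tested members over 8 alternatives and in 40 to 43 when each animal was left out (42 as reported). Other counts of called members moved by more than 1.5 times. For J2 between genotypes (0) they were 3 without the filter, 1 with DESeq2, 1 with GC and length correction, 7 with all 12 libraries and 0 to 18 leaving out one animal. For K1 between genotypes (32) thinning gave 21 and leaving out one animal 12 to 39. For J2 against input in controls (42) leaving out one animal gave 0 to 46. In DKO (20) library size alone gave 13, no filter 32 and leaving out one animal 3 to 32. For K1 against input leaving out one animal gave 2 to 37 in controls (27) and 17 to 29 in DKO (26). For the J2 difference between genotypes (0) no filter gave 10, DESeq2 10, all 12 libraries 2 and leaving out one animal 0 to 23. For the K1 difference (0) thinning with replicate block gave 1 and leaving out one animal 0 to 6. Hist1h1d in J2 against input in controls changed sign without the filter (0.0295 against -0.0332, called in neither). Fits that leave out an animal keep 1 library in an arm, assumed to vary like the others. Where no count of all genes is given, the counts of members are not read as a result about the histone genes. The causes were not tested.

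With a replicate block the counts of called members were 42 in input, 1 in J2 and 31 in K1 between genotypes, where the number pairs no animals, so they share only a number. With the animal as the replicate block, where the pairing is real, they were 41 and 24 for J2 against input in controls and DKO, 32 and 31 for K1, 0 for the J2 difference and 3 for the K1 difference. Depth limits the DKO pulldowns: 27 to 32 of the 65 members had at most 3 counts in each of those libraries.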
